A study of Mus musculus with 27 samples.

Results

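Krt7, Krt19, Epcam, Sox9, Spp1, Cldn4 and Cftr are genes by which bile duct epithelium is recognised in the liver. These 7 genes were chosen by name, with no threshold on their levels, from 51826 gene identifiers, and were followed as a readout of bile duct cells in whole liver. Whole livers of wildtype BALB/C mice, an inbred strain, had been profiled by bulk RNA sequencing through a reproductive cycle. All animals had the same genotype, and no transgene or drug is named in the labels. The 7 stages were nulliparous (NUL, 4 mice), day 10 of lactation (LAC, 3), days 2, 4, 6 and 8 after weaning, called involution days (ID2, 3; ID4, 4; ID6, 6; ID8, 3), and regressed, 4 weeks after weaning (REG, 4). Mice were of matched age, and those that were bred had been mated when 10 to 12 weeks old. Litters were brought to an even size, and pups were removed after 10 to 14 days of lactation. Each library came from a whole frozen liver that had been ground to powder, so every cell type of the organ is mixed in each value.

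Bile ducts drain bile from the hepatocytes to the gut and are lined by cholangiocytes, a simple epithelium that makes up a small share of the liver's cells. During development Notch, TGF-beta and YAP signals direct liver progenitors to this fate, and Sox9 is among the earliest transcription factors of the forming duct. Mature cholangiocytes carry keratins 7 and 19, adhere through Epcam and claudins, and move chloride through the channel Cftr. Some of these genes are not private to the duct: osteopontin, the product of Spp1, is also made by macrophages and activated stellate cells, and Sox9 is also found in a few hepatocytes next to the portal vein.

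Total expected counts ranged from 41120650 to 75664540 per library. The tissue label was borne out by hepatocyte genes, since all 8 of a list led by Alb were detected in every library. In the sample titles 7 animals carry numbers under 200 (all 3 ID8, 2 of 3 ID2 and 2 of 4 ID4) and 20 carry numbers of 200 or over, a division the labels do not explain, so for ID8 the stage and the number range cannot be told apart. A list of 16 pancreatic acinar genes summed to 2970 TPM in library ID2_31, to 196 TPM in ID4_15 and to 71.1 TPM in ID8_98b, against 12.5 to 35.8 TPM in the others. Pancreatic duct cells also express most of the 7 genes, so the differences between ID2 and another stage that the text names are also given without ID2_31.

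In length-normalised units (TPM, the share of a library's transcripts after division by gene length) Spp1 stood far above the other duct genes, with a median of 30.96 TPM over the 27 libraries and 90.2% of the summed level of the 7 genes. The median was 1.55 TPM for Krt19, 0.79 TPM for Epcam, 0.36 TPM for Sox9, 0.34 TPM for Krt7, 0.09 TPM for Cldn4 and 0.01 TPM for Cftr. The summed level was therefore close to an Spp1 level. It was 39.5 ± 6.29 TPM in NUL (SD, n = 4) and 23.1 ± 3.68 TPM in LAC (n = 3). Without Spp1 the sum was 3.34 ± 0.613 TPM in NUL and 2.71 ± 1.05 TPM in LAC, a difference of about the size of the spread between animals. The remaining stages lay between 30.3 TPM (ID4) and 36.2 TPM (ID8) with Spp1, and between 3.06 TPM (ID4) and 3.79 TPM (ID2) without it, where the ID2 animals other than ID2_31 had 3.02 and 4.18 TPM.

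Stages were compared in CPM, the count scaled to a TMM-normalised library total. A gene counted as changed, or called, where edgeR's quasi-likelihood test gave a Benjamini-Hochberg adjusted p under 0.05 over the 16428 genes that passed the filter on low counts. Of the duct genes 6 passed that filter and Cftr did not. Over all stages 2 of the 6 differed, Spp1 (edgeR adjusted p = 0.0112) and Sox9 (edgeR adjusted p = 0.0243), where 27% of all tested genes did. Without ID2_31 both still differed (edgeR adjusted p = 0.0151 and 0.0113). Krt7, Epcam, Krt19 and Cldn4 had edgeR adjusted p-values of 0.179, 0.476, 0.503 and 0.992 in that joint test. Spp1 and Sox9 were lower in LAC than in NUL, Spp1 was higher again at ID2, and Sox9 was also lower at ID4 than in NUL. The keratins, Epcam and Cldn4 passed the test in no comparison. A lower level in bulk tissue can mean fewer cells of a type or less RNA per cell, and these cannot be told apart here. Each value is also a share of the organ's RNA: 8 hepatocyte genes summed to 91616 ± 9332 TPM in NUL and 142475 ± 12533 TPM in LAC. Alb led that sum, with a median of 63260 TPM over the libraries, while the other medians were at most 9341 TPM. For LAC against NUL 2 of the 8 were called higher and 1 lower (median 0.14), where 11.2% of all genes were called. The part of hepatocyte RNA in the lower Spp1 and Sox9 levels was not tested.

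Spp1 encodes osteopontin, a secreted phosphoprotein that binds integrins, and lies on chromosome 5 (ENSMUSG00000029304, 104435118 to 104441050, plus strand, GRCm38, protein-coding). It had 1034 to 2642 counts per library, the deepest coverage of the 7 genes. A gene model of unknown coding status, Gm42793, overlaps it on the same strand, although all Spp1 counts in the deposited tables were whole. Its upstream sequence is shown with that of Epcam because these 2 genes varied together most over the animals. Both are the 250 bases before the RefSeq start, 5′ to 3′, with capitals marking matches to a TATA box (TATAAA) and to the RUNX core (AACCACA).
Spp1 (chr5:104434861-104435110, plus strand, GRCm38.p6): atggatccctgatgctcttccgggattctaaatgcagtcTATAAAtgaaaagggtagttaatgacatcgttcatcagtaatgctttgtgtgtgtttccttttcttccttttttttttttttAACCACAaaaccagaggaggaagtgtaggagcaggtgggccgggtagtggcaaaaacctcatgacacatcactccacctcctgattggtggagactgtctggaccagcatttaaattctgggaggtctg
Epcam (chr17:87635729-87635978, plus strand, GRCm38.p6): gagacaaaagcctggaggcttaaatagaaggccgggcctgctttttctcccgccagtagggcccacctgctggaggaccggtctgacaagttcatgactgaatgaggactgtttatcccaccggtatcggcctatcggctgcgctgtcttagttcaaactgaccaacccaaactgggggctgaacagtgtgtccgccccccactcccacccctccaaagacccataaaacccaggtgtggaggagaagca
RefSeq also gave Spp1 a second window inside the gene, which held none of the 5 motifs and is not printed. The Spp1 window shown held AACCACA 129 bases before the start and TATAAA farther upstream, and neither overlapped another motif searched. The Epcam window held none of the 5 motifs searched on both strands, which also included the RBPJ core TGGGAA, the TEAD core GGAATG and the AP-1 site TGANTCA. Over the same 250 bases of 32851 RefSeq windows, TATAAA was present in 12.4%, AACCACA in 4.4%, TGGGAA in 21.6%, GGAATG in 12.6% and TGANTCA in 6.75%. RefSeq windows were found for 5 of the 7 genes. In the minus-strand window of Cldn4 TGANTCA occurred 240 and 158 bases before the start, and the windows of Krt7 and Cftr held none of the 5 motifs.

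Spp1 fell in lactation. The NUL livers had 29.4, 31.9, 34.1 and 42.0 CPM and the LAC livers 17.8, 21.6 and 22.4 CPM. All 3 LAC animals lay below all 4 NUL animals, as was so for 11.2% of all genes. Means were 34.3 ± 5.48 CPM in NUL (SD, n = 4) and 20.6 ± 2.48 CPM in LAC (n = 3), which gave a log2 fold change of -0.74 (SE 0.15, 95% interval -1.04 to -0.44, edgeR adjusted p = 0.00146). In this comparison 11.2% of all genes were called and 6% were called lower, against 2 of 6 duct genes, both lower. The Spp1 call held without each of the 27 libraries and in the 9 other alternatives run, with log2 fold changes from -0.82 to -0.62. Its highest edgeR adjusted p, 0.0182, came without LAC_213.

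**Figure D1:**
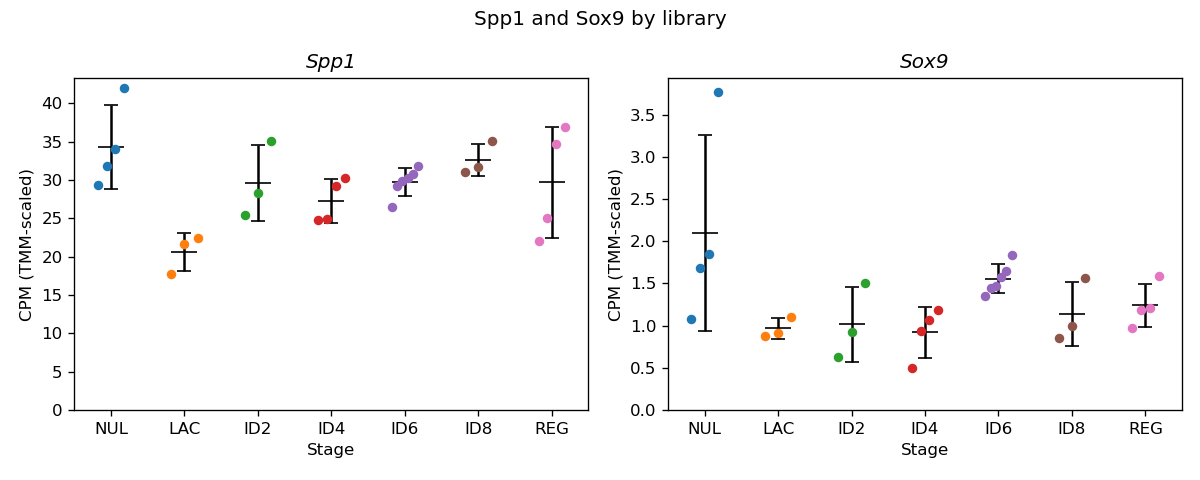
CPM (TMM-scaled) of Spp1 and Sox9 in each library by stage, with the mean (line) and SD (bars). The 3 LAC points of Spp1, 17.8 to 22.4 CPM, lie below all NUL, ID2, ID4, ID6 and ID8 points, and 1 NUL point of Sox9, 3.76 CPM, lies far above the rest.

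At day 2 after weaning Spp1 was higher than in lactation. The ID2 livers had 25.4, 28.3 and 35.0 CPM, all above the LAC livers, a separation in that direction that 18.1% of all genes showed. The log2 fold change was 0.52 (SE 0.15, edgeR adjusted p = 0.0217), and Spp1 was the only 1 of 6 duct genes called where 16.1% of all genes were and 8.48% were higher at ID2. Without the acinar-rich ID2_31 the call held (0.55, edgeR adjusted p = 0.0395). It was lost without ID2_224 (0.38, edgeR adjusted p = 0.141), without LAC_213 (0.43, edgeR adjusted p = 0.127), with the number range as a covariate (0.52, edgeR adjusted p = 0.0743) and in animals numbered 200 or over alone (0.76, edgeR adjusted p = 0.0613). In that last fit ID2 is 1 animal, assumed to vary like the other groups, and the estimate was larger while the p missed the threshold.

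No later comparison called Spp1. The ID4 livers had 24.8, 24.9, 29.2 and 30.3 CPM, the 6 ID6 livers 26.4 to 31.8 CPM with a median of 30.0, and the ID8 livers 31.1, 31.7 and 35.0 CPM. The REG livers had 22.1, 25.0, 34.8 and 36.9 CPM, the widest spread of any stage, with REG_203 inside the LAC range. Ordered by mean, LAC was lowest and apart from its neighbour ID4, and from there ID4, ID2, REG, ID6, ID8 and NUL each overlapped the next. REG differed from NUL by -0.21 (SE 0.13, 95% interval -0.48 to 0.06, edgeR adjusted p = 0.847), so a level lower by up to 0.48 on the log2 scale was within the error. The joint test of Spp1 over stages rested on LAC_213, without which its edgeR adjusted p was 0.0761.

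A sum of stromal markers moved with Spp1. A list of 10 genes of portal fibroblasts and stellate cells, the connective tissue cells around ducts and sinusoids, summed to 155 ± 16.2 TPM in NUL (136.8 to 170.9) and 98.5 ± 6.36 TPM in LAC (91.1 to 102). All 10 were detected in every library, and 4 of them were lower in LAC, where 6% of all genes were: Dcn (decorin, log2 fold change -0.52), Reln (reelin, -0.68), Col3a1 (a fibrillar collagen chain, -1.29) and Thy1 (-0.96). The Thy1 call was lost without 8 of the single libraries, and the others held without each. Dcn led the sum, with a median of 104 TPM, against 11.3 TPM for Reln and 10.0 TPM or less for each of the rest. Relations with the sum therefore weigh Dcn most. Over the 27 libraries log2 CPM of Spp1 and this sum had r = 0.81 (permutation p = 1e-05, the smallest that 100000 resamples can give, adjusted p = 0.0003 over 30 relations) and rho = 0.70 (permutation adjusted p = 0.0018). Without the 2 libraries farthest from the median r was 0.77, among the 20 animals numbered 200 or over 0.81, among the 7 numbered under 200 0.89, and after removal of the stage means 0.65. It was the only 1 of the 30 relations of a duct gene with a marker list in which both r and rho passed the adjustment. Sox9 with the same stromal sum passed by rho (0.60, permutation adjusted p = 0.0189) but not by r (0.43, permutation adjusted p = 0.185), and after removal of the stage means r was -0.01. Of the macrophage genes 4 of 9 were called for LAC against NUL, all lower (6% of all genes), with a sum of 288 ± 21.98 TPM in NUL and 192 ± 32.4 TPM in LAC, but over all libraries their sum had r = 0.27 with Spp1 (permutation adjusted p = 0.532). For ID2 against LAC, where Spp1 rose, 5 of the 9 macrophage genes (median 0.60) and 2 of the 10 stromal genes (median 0.43) were called, all higher, as were 8.48% of all genes. Without ID2_31 these were 4 of 9 (median 0.71) and 1 of 10 (median 0.36), again all higher. At ID4 and at ID6 against NUL 5 of the 9 macrophage genes were called, all higher (medians 0.54 and 0.48). Of all genes 4.25% and 1.08% were called there, and the Spp1 estimates, not called, were -0.33 and -0.21. The macrophage sum was led by Clec4f (median 151 TPM) and Cd5l (81.55 TPM), with Trem2 at 1.05 and Gpnmb at 0.42 TPM. The part of stromal or macrophage RNA in the Spp1 and Sox9 results was not tested.

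**Figure D2:**
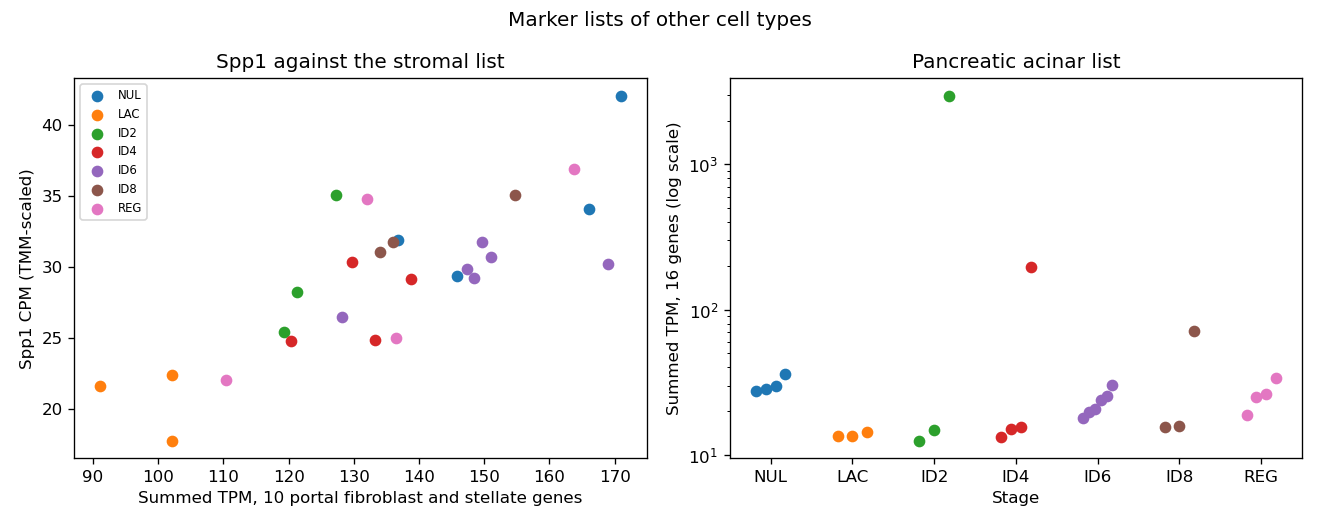
Left, CPM of Spp1 against the summed TPM of 10 portal fibroblast and stellate genes, 1 point per library coloured by stage. Right, summed TPM of 16 pancreatic acinar genes by stage on a log axis. The LAC libraries sit at the low end on both axes of the left panel, and 1 ID2 library reaches 2970 TPM in the right panel.

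Sox9, the HMG-box transcription factor of duct progenitors, lies on chromosome 11 (ENSMUSG00000000567, 112782224 to 112787760, plus strand) and had 30 to 247 counts per library. The NUL livers had 1.08, 1.69, 1.84 and 3.76 CPM, and the LAC livers 0.879, 0.911 and 1.11 CPM. The ranges overlapped by a narrow margin, since the highest LAC animal exceeded the lowest NUL animal. Sox9 was called lower in LAC (log2 fold change -1.11, SE 0.34, edgeR adjusted p = 0.0303). The size of that difference rested on NUL_221: without it the log2 fold change was -0.66 (edgeR adjusted p = 0.202) and the joint edgeR adjusted p was 0.103. The call was also lost without any 1 of the LAC animals, although the estimates stayed about as large. They were -1.05 without LAC_200 (edgeR adjusted p = 0.106), -1.07 without LAC_213 (edgeR adjusted p = 0.107) and -1.22 without LAC_240 (edgeR adjusted p = 0.0580).

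The lowest Sox9 mean was at ID4, with 0.495, 0.931, 1.06 and 1.18 CPM. ID4 and NUL overlapped, and Sox9 was lower at ID4 by -1.18 (SE 0.31, edgeR adjusted p = 0.0239), the only 1 of 6 duct genes called where 4.25% of all genes were and 1.61% were lower. This call too was lost without NUL_221 (-0.74, edgeR adjusted p = 0.168), and without ID4_15 (-0.98, edgeR adjusted p = 0.0888) or ID4_215 (-1.19, edgeR adjusted p = 0.0563). Both TPM settings lost it as well, as did the number range as a covariate (-1.11) and a fit of only the groups compared (-1.18). In animals numbered 200 or over alone the estimate was -0.99. The ID2 livers had 0.627, 0.919 and 1.5 CPM, the highest of them ID2_31. At ID2 the difference from NUL was -1.03 (edgeR adjusted p = 0.0891; -1.43 and 0.0534 without ID2_31), and DESeq2 called it (adjusted p = 0.0403).

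The ID6 livers lay higher and close together in Sox9, from 1.35 to 1.84 CPM with a median of 1.52, above all 4 ID4 livers, a separation that 3.93% of all genes showed. That difference of 0.75 (SE 0.28) missed the threshold (edgeR adjusted p = 0.1002). The ID8 livers had 0.854, 0.992 and 1.56 CPM and the REG livers 0.977, 1.19, 1.20 and 1.58 CPM, both overlapping every other stage. Estimates against NUL were negative at ID8 (-0.87, edgeR adjusted p = 0.261) and REG (-0.76, edgeR adjusted p = 0.548). In the order of Sox9 means, ID4, LAC, ID2, ID8, REG, ID6 and NUL, each stage overlapped the next.

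Krt19, the keratin of simple ductal epithelium, lies on chromosome 11 (ENSMUSG00000020911, 100140810 to 100148665, minus strand) and had 53 to 148 counts. Its NUL livers had 0.869, 1.19, 1.42 and 1.98 CPM, its LAC livers 0.914, 1.08 and 1.87 CPM and its ID2 livers 1.82, 1.92 and 2.34 CPM. LAC and NUL covered much the same range, and 1 ID2 animal lay above both groups. The estimate for LAC against NUL was -0.08 (95% interval -0.67 to 0.51). ID2 exceeded LAC by 0.65 (SE 0.31) without passing the threshold (edgeR adjusted p = 0.153; 0.70 and 0.213 without ID2_31), and it passed when LAC_240, the highest LAC animal, was left out (1.02, edgeR adjusted p = 0.0422). In the later stages Krt19 lay between 1.01 and 2.18 CPM.

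Krt7, the partner keratin of ducts (chromosome 15, ENSMUSG00000023039, 101411043 to 101430313, plus strand), had 25 to 95 counts. It had 0.636, 0.650, 0.762 and 0.912 CPM in NUL and 0.919, 1.17 and 1.31 CPM at ID2, the highest again being ID2_31. All 3 ID2 animals lay above the NUL animals, the lowest of them barely, a separation that 9.51% of all genes showed. The difference of 0.62 (SE 0.28) did not pass (edgeR adjusted p = 0.252; 0.50 and 0.546 without ID2_31). In LAC Krt7 stood at 0.638, 0.774 and 1.02 CPM, within 0.13 of NUL on the log2 scale (95% interval -0.45 to 0.71). The effective length that the authors' program gave Krt7 ranged from 1348 to 3854 bases between libraries, so its TPM can also move with how reads were divided among its transcripts. On log2(TPM + 1) the LAC against NUL estimate had the opposite sign, -0.12, and the cause of that was not tested.

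Epcam, an adhesion molecule of epithelial cells (chromosome 17, ENSMUSG00000045394, 87635979 to 87651129, plus strand), had 32 to 105 counts. It had 0.813, 1.14, 1.37 and 1.38 CPM in NUL and 0.552, 0.860 and 1.47 CPM in LAC, which spanned the NUL range on both sides. Its highest stage was ID8, with 1.38, 1.66 and 1.86 CPM against 0.849 to 1.43 CPM in ID6, and the ranges just overlapped. The ID8 against ID6 difference of 0.59 (SE 0.27) did not pass (edgeR adjusted p = 0.214), and in it the stage goes with the number range of the animals. Cldn4, a tight junction claudin on chromosome 5 (ENSMUSG00000047501, 134945119 to 134946934, minus strand), had only 1 to 16 counts per library. Its stage means ran from 0.103 CPM (ID6) to 0.145 CPM (REG), every neighbouring pair overlapped, and the interval for LAC against NUL, -1.45 to 1.70 on the log2 scale, left wide differences in either direction within the error.

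**Figure D3:**
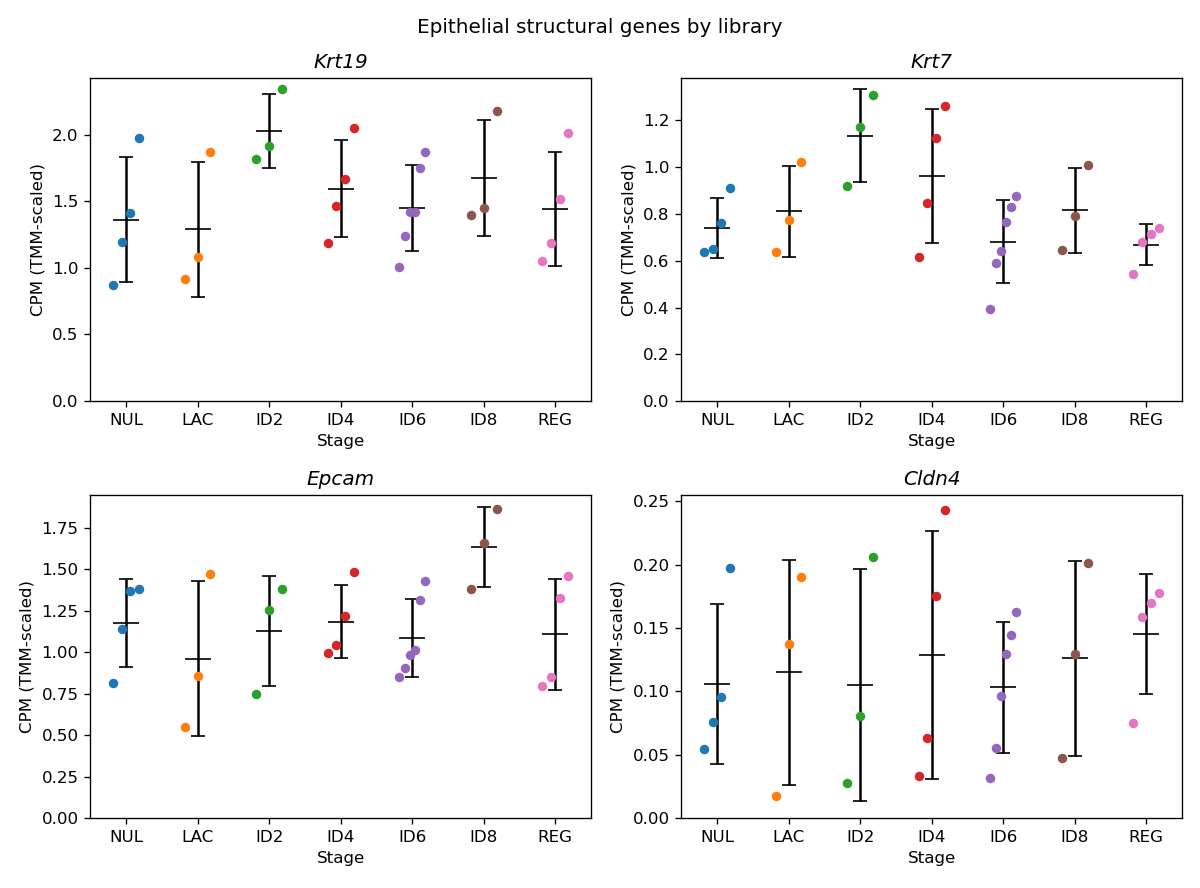
CPM (TMM-scaled) of Krt19, Krt7, Epcam and Cldn4 in each library by stage, with the mean (line) and SD (bars). Krt19 and Krt7 have their highest stage mean at ID2, Epcam at ID8, and the ranges of neighbouring stages overlap in all 4 panels.

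Cftr, the chloride channel of the apical duct membrane (chromosome 6, ENSMUSG00000041301, 18170687 to 18322768, plus strand), had 0 to 8 counts per library. The count was 0 in 3 libraries, 1 each of NUL, ID6 and ID8, and a count of 0 allows up to 3 counts. The annotated genes Gm15595 and the antisense Gm15592 overlap it, and the use of strand in counting is not given in the sources used here. The highest count, 8, was reached in the acinar-rich ID2_31 and also in ID6_209 and ID6_232. In TPM ID2_31 was the highest, with 0.06 TPM against 0.04 TPM or less in the others. At this depth Cftr did not enter the main fit, and its values from the alternative fit without the filter are not given.

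The other 8 comparisons called 0 of the 6 tested duct genes with edgeR. Against NUL these were ID2, where 3.24% of all genes were called, ID6 (1.08%), ID8 (0.499%) and REG (0.0852%). Between neighbouring stages they were ID4 against ID2 (1.49%), ID6 against ID4 (8.53%), ID8 against ID6 (4.12%) and REG against ID8 (0.0487%). At an unadjusted p under 0.05 the duct genes numbered 2 for ID2 against NUL (16.9% of all genes; 1 duct gene without ID2_31), 0 for ID6 (11.9%), 1 for ID8 (12.8%) and 1 for REG (7.17%). They numbered 0 for ID4 against ID2 (13.9%), 2 for ID6 against ID4 (22.9%), 1 for ID8 against ID6 (20.5%) and 0 for REG against ID8 (9.02%). DESeq2 called none in these comparisons except Sox9 at ID2. The median log2 fold change of the 6 genes was -0.19 for LAC against NUL (all genes -0.01), 0.36 for ID2 against LAC (0.35 without ID2_31; all genes 0.02) and -0.12 for REG against NUL (all genes 0.00).

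**Figure D4:**
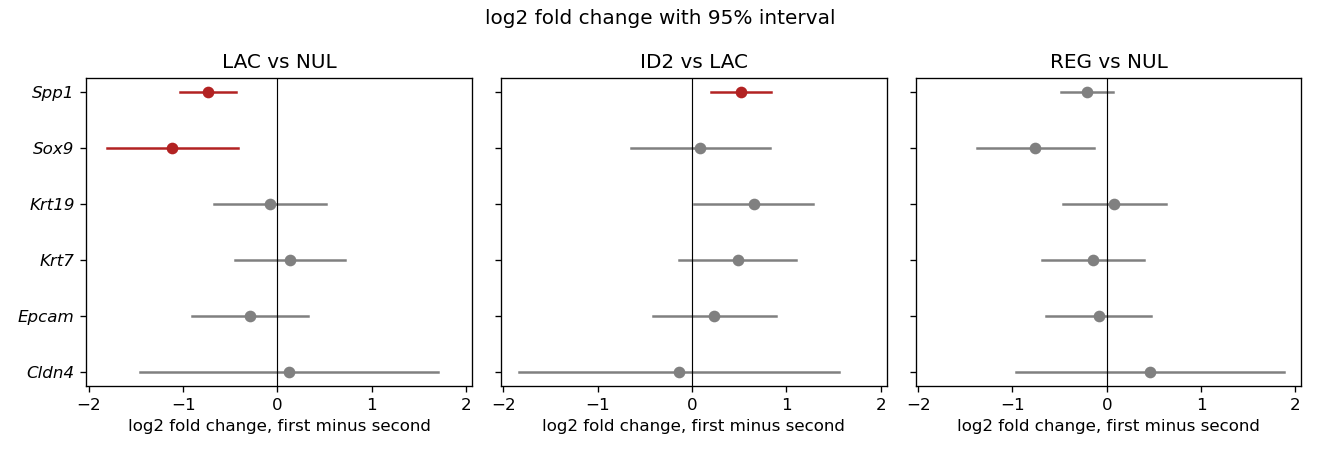
log2 fold changes (points) with 95% intervals (lines) of the 6 tested duct genes in 3 comparisons, red where the edgeR adjusted p was under 0.05. Spp1 and Sox9 are red and left of 0 for LAC against NUL, Spp1 is red and right of 0 for ID2 against LAC, and no gene is red for REG against NUL.

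Of the other genes of the biliary epithelium, 30 listed and 27 tested, 0 rose and 4 fell in LAC against NUL, where 11.2% of all genes were called and 6% were lower, and the list's median was -0.16. Krt23, a keratin of ducts, fell to 0.793 ± 0.0727 CPM in LAC (n = 3) from 3.98 ± 1.63 CPM in NUL (n = 4), by 2.32 on the log2 scale (edgeR adjusted p = 0.0139). Aqp1, a water channel of cholangiocytes that blood vessel endothelium also carries, fell by 0.57 on the log2 scale (edgeR adjusted p = 0.000428), and Cdh1 and Cldn3, junction genes that hepatocytes also express, fell by 0.35 and 0.31. The call of Aqp1 held without any 1 library. That of Cdh1 was lost without 4 single libraries and that of Cldn3 without 8 (highest edgeR adjusted p 0.218 and 0.160). That of Krt23 was lost without any 1 of the LAC animals (highest edgeR adjusted p 0.0591), and the list's count ran from 1 (without LAC_200) to 5 (without LAC_240). At ID2 against LAC 6 of the list rose and 0 fell, where 16.1% of all genes were called and 8.48% were higher, and the list's median was 0.18 (0.28 without ID2_31): Krt23 (2.07), Aqp1 (0.50), Cldn3 (0.44) and Cdh1 (0.36), and, named after their values were seen, St14 (1.33) and Cd24a (0.86). Without ID2_31 the count was 2, Aqp1 (0.56) and Cldn3 (0.46), while Krt23 (1.57), Cdh1 (0.33), St14 (1.26) and Cd24a (0.90) missed the threshold with estimates in the same direction. The count of all genes called also went down there, from 2648 to 1739. The list's count was also 2 without LAC_200 (1958 of all genes) and with the number range as a covariate (1249), 3 without ID2_39 (1681) or LAC_213 (1389), and 1 in animals numbered 200 or over alone (395).

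The list's other calls were few. Cdh1 was lower at ID8 than at ID6 (-0.45, edgeR adjusted p = 0.00995; 0.116 with the number range as a covariate), and none of the 27 was called for REG against NUL. Over all stages 6 of the 27 were called, where 27% of all genes were, among them Onecut1, a transcription factor of duct and hepatocyte development whose SD in NUL exceeded its mean (32.6 ± 34.5 CPM, n = 4), and Mmp7, named after its values were seen. Sctr, the secretin receptor of cholangiocytes, also named after its values were seen, had a count of 0 in 20 libraries and reached at most 0.07 TPM.

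Of 18 Notch and YAP genes tied to duct fate, all tested, 2 fell and 0 rose in LAC against NUL, a share near the 11.2% of all genes called (list median -0.01): Sox4, a Sox factor that acts with Sox9 in duct formation (-0.91, edgeR adjusted p = 0.00771), and Tgfb1, a ligand that promotes duct fate (-0.49, edgeR adjusted p = 0.0135). Both calls were lost without LAC_213 (edgeR adjusted p = 0.0572 and 0.120). Tgfb1 rose by 0.50 at ID2 against LAC (edgeR adjusted p = 0.0134; 0.59 and 0.0125 without ID2_31), while Yap1, a Hippo pathway coactivator named after its values were seen, fell by 0.26 (edgeR adjusted p = 0.0338). These are 2 of 18, where 16.1% of all genes were called. The Yap1 call was lost without ID2_31, with the estimate still -0.26, and without each other ID2 or LAC animal, and that of Tgfb1 without ID2_39 or LAC_213, with the number range and in animals numbered 200 or over alone. At ID4, where Sox9 was lowest, the Notch ligand Jag1 (-0.82, also named after its values were seen) and the YAP partner Tead1 (-0.89) were lower than in NUL, 2 of 18 where 4.25% of all genes were called. Tead1 was higher at ID6 than at ID4 (0.75, edgeR adjusted p = 0.0249), 1 of 18 where 8.53% of all genes were called. Both ID4 calls were lost without NUL_221 among others (highest edgeR adjusted p without 1 library 0.0957 for Jag1 and 0.0736 for Tead1). The ID6 against ID4 call of Tead1 was lost without 6 single libraries (highest edgeR adjusted p 0.0763) and under 5 of the 9 other alternatives. Krt8 and Krt18, keratins that ducts share with hepatocytes, were not called for LAC against NUL. For ID2 against LAC 1 of the 2 was called, higher (list median 0.28), where 8.48% of all genes were higher. Without ID2_31 the called keratin was Krt8 (0.58, edgeR adjusted p = 0.0172). Krt8 was 0.58 higher at ID2 than in NUL (edgeR adjusted p = 0.0174; 0.69 and 0.0132 without ID2_31), a call lost in both TPM settings, with the number range, in animals numbered 200 or over alone, and without ID2_39, NUL_221 or NUL_226 (highest edgeR adjusted p 0.523). It was 0.56 lower at ID6 than at ID4 (edgeR adjusted p = 0.00316), a call lost only in animals numbered 200 or over alone.

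Across animals the 7 genes varied together only in part. Of 21 pairs, 15 had r above 0 on log2 CPM, and 1 passed after adjustment over the 21: Epcam with Spp1, r = 0.61 (permutation adjusted p = 0.0139) and rho = 0.60 (permutation adjusted p = 0.0281). That r was 0.54 without the 2 libraries farthest from the Epcam median, 0.62 in the 20 animals numbered 200 or over, 0.75 in the 7 under 200 and 0.63 after removal of stage means. Krt19 with Epcam followed at r = 0.48 (permutation adjusted p = 0.133), and the lowest was Spp1 with Cftr at -0.32. The keratins, Krt7 with Krt19, had r = 0.31 (permutation adjusted p = 0.291). All pairs share the libraries' depth and composition.

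The genes whose log2 CPM was most like that of each duct gene over the 27 libraries are given as a description. For Spp1 they were Dpt (r = 0.88) and Loxl1 (0.84), a matrix protein and a matrix cross-linking enzyme, and 4931406P16Rik (0.83). For Epcam they were Tagln (0.72), a smooth muscle protein, Pdzrn3 (0.70) and Ralgds (0.69). Krt7 was most like Cyb561 (0.81), Krt19 like Smpd3 (0.75), Sox9 like D930016D06Rik (0.76) and Cldn4 like Gm14322 (0.68). By mean r over the 6 tested genes the first was Col6a1 (0.44), followed by Col3a1 (0.44), both collagen chains.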

How the data were processed

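The authors deposited 1 gene table per library. Per the file headers the tables hold RSEM's expected count, an estimate of the reads of a gene that is not normalised between libraries, and TPM, scaled by the authors to gene length and a common total. Per the submitters' processing notes STAR 2.6.1a and RSEM 1.3.1 were used with mm10 and GRCm38. Their settings, the annotation and the use of strand are not given in the sources used here. Libraries were made with NEBNext Ultra RNA kits, per the labels' protocols.

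Each title number was taken as 1 animal. No number occurs in more than 1 group. No 2 libraries of a group were close to sampling noise (lowest chi-square per gene 41.3). Symbols and positions came from GENCODE mouse release M21 (GRCm38), which named 51633 of 51826 identifiers, and promoter windows from RefSeq GRCm38.p6.

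Expected counts were rounded and fitted with edgeR 4.0.16 in R 4.3.3 (filterByExpr, minimum count 10, TMM, glmQLFit with robust estimation). The 27 libraries and 7 groups entered 1 fit with 11 comparisons and 1 joint test, two-sided, with Benjamini-Hochberg adjustment over 16428 genes. DESeq2 1.42.0 and limma 3.58.1 on log2(TPM + 1) and log2(TPM + 0.1) of the deposited values were alternatives. The fit was also run on simulated counts with known fold changes, and the outcome is not reported here. Values are mean ± SD over animals, and counting limits cover counting error only. Correlations used permutation tests with 100000 resamples in SciPy 1.17.1.

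The members and the lists were chosen with earlier results of these data known. All 7 members were to be named. From each other list the genes called in the joint test were named, 6 at most, if their mean log2 CPM reached 0. For likeness the 3 genes with the highest r per member were taken, and the 10 by mean r. Further lists served as checks. Mesothelium summed to 3.05 to 4.11 TPM by stage mean. That sum had rho = 0.42 with Krt7 and 0.40 with Krt19 (permutation adjusted p = 0.221 and 0.223). Pancreatic islet genes summed to 0.380 to 3.73 TPM. The intestinal list summed to 42.7 to 79.2 TPM, led by Fabp2.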

Additional observations from a re-analysis of the deposited data

How the results depend on the processing

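Depth limits these results: with 3 to 6 animals per stage, Krt7, Krt19, Epcam and Cldn4 rest on 1 to 148 counts per library, and Cftr was not in the main fit. The Spp1 difference between LAC and NUL passed in every alternative run, whereas each call of Sox9 and the Spp1 call for ID2 against LAC were lost in some. The causes of the changes given here were not tested. No paired analysis was possible because no replicate number occurs in more than 1 group. The restriction to animals numbered 200 or over was chosen after seeing the data, and it leaves 1 ID2 animal and no ID8 animal.

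Over all stages 2 duct genes were called, and 1 with log2(TPM + 1), with the number range as a covariate and in animals numbered 200 or over alone. For LAC against NUL 2 became 1 under both TPM settings and in a fit of only the groups compared. For ID2 against NUL 0 became 1 with DESeq2, which called 865 of all genes there against 532. For ID4 against NUL 1 became 0 under both TPM settings, with the number range, with only the groups compared and in animals numbered 200 or over alone. For ID2 against LAC 1 became 0 with the number range and in animals numbered 200 or over alone. For ID4 against NUL the count over all genes went from 698 to 518 and 509 (TPM settings), 359 (number range), 180 (numbered 200 or over) and to 730 with only the groups compared. Leaving out single libraries gave 1 to 2 over all stages and for LAC against NUL, 0 to 1 for ID2 and for ID4 against NUL, and 0 to 2 for ID2 against LAC. Within animals numbered 200 or over 3 pairs of genes passed in place of 1 (Krt7 with Cldn4, Epcam with Spp1, Epcam with Cldn4). Without Spp1 the summed level was 3.34 TPM in NUL, 2.71 in LAC, 3.79 in ID2, 3.06 in ID4, 3.35 in ID6, 3.66 in ID8 and 3.39 in REG.

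Signs changed only for estimates that were not called. For LAC against NUL, Krt7 was -0.12 and -0.38 under the TPM settings and -0.069 to 0.28 without single libraries. Krt19 was 0.024 and 0.049 under the TPM settings and -0.45 to 0.15 without single libraries. Cldn4 was -0.027 with log2(TPM + 0.1) and -0.44 to 0.63 without single libraries. For REG against NUL, leaving out single libraries gave -0.12 to 0.31 for Krt19 and -0.24 to 0.044 for Epcam. For ID2 against LAC it gave -0.040 to 0.68 for Epcam, -0.31 to 0.33 for Sox9 and -1.12 to 0.42 for Cldn4. In animals numbered 200 or over Sox9 was -0.075 and Cldn4 0.83, and Cldn4 was 0.16 with the number range and 0.13 with the sequencing runs.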
